A study of Mus musculus with 8 samples.

Results

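The miRNAs described here are the miR-297, miR-466, miR-467 and miR-669 families of the mouse, most of which are encoded in a single intron of the gene Sfmbt2. They were chosen by name: every row of the deposited miRNA table whose name is miR-297, miR-466, miR-467 or miR-669, with any letter, copy number and arm. This took 73 of the 1396 rows of the table. Because 20 of these names fall into 9 sets with the same value in every library, the 73 rows hold 62 distinct ones, 4 of miR-297, 25 of miR-466, 10 of miR-467 and 23 of miR-669. Such names are counted once and written as 1 of them: miR-467a-5p also stands for miR-467b-5p, miR-669a-5p for miR-669p-5p, miR-466b-3p for miR-466c-3p and miR-466p-3p, miR-467a-3p for miR-467d-3p, miR-297a-3p for miR-297b-3p and miR-297c-3p, and miR-466b-5p for miR-466o-5p. Likewise miR-466d-5p stands for miR-466n-5p, miR-669d-3p for miR-669d-2-3p, and miR-297c-5p for miR-669h-3p. The last set joins 2 families, rests on 1 read in sham 4 and is counted under miR-297 and the 5p arm.

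The 8 libraries hold small RNA of left spinal cord, taken from C57BL/6 mice. In the 4 bone cancer pain libraries, cells of the mouse lung cancer line LL/2 had been placed in the marrow cavity of the left femur, and in the 4 sham libraries an equal amount of saline had been placed there. The implant is a tumour of 1 cell line in 1 bone. The sources used here give neither the age and sex of the mice, nor the days between surgery and sampling, nor whether each library came from its own animal, so a p-value compares these libraries only, whose spread may be technical.

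Library totals ran from 7686762 to 13498956 reads, of which 5220739 to 9260169 fell on listed miRNAs, so that 1 read was worth 0.0741 to 0.130 CPM, the unit of reads scaled to the library total. miR-9-5p, a miRNA of neural tissue, stood at 83597 to 103034 CPM and miR-10b-5p, from the Hox region that is active in spinal cord, at 89971 to 122639 CPM. The neuronal miR-124-3p was lower, at 748 to 1271 CPM. Of the oligodendrocyte miRNAs, miR-219a-5p stood at 6.0 to 17.4 CPM and miR-338-3p at 230 to 456 CPM. The summed level of the muscle miRNAs miR-1a, miR-133a, miR-133b and miR-206 (4 of 4 above 0 in every library) was 6055, 6088, 7169 and 16927 CPM in bone cancer pain 1 to 4 and 28955, 23987, 5368 and 9983 CPM in sham 1 to 4. Most of it was miR-1a, at 27491 CPM in sham 1, and the sum does not separate skeletal muscle from heart. Sham 1, sham 2 and bone cancer pain 4 were thus the libraries highest in muscle miRNAs, and the part of this in the results below was not tested except where values without sham 1 and sham 2 are given. The heart miRNAs miR-208a-3p and miR-499-5p were highest in sham 1, at 12.9 and 326 CPM. In the other libraries they reached at most 0.09 and 19.0 CPM, and their source was not tested. In such bulk samples fewer cells of a type and less RNA per cell cannot be told apart.

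A miRNA is cut from a hairpin-shaped precursor, and either strand of its stem, called the 5p or the 3p arm, can be loaded onto an Argonaute protein and guide it to mRNAs that pair with the seed near its 5′ end. Sfmbt2 encodes a Polycomb-group protein, and in the mouse it is an imprinted gene, expressed from the paternal copy in the early embryo and placenta. The intron cluster is a rodent expansion of repeated hairpins, and mice that lack it have defects of the placenta. Single members have been studied elsewhere in the mouse: miR-669a acts on the muscle regulator MyoD in heart progenitors, and miR-467 acts on thrombospondin 1 in endothelial cells.

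A repetitive make-up was seen in the few mature sequences available. Whether the other members of the families share it was not tested. RefSeq's table (GRCm38.p6) held a mature sequence for 7 of the 62 distinct rows, all of them of hairpins outside Sfmbt2. The sequences of the cluster's own rows were therefore not examined. Capitals mark the seed, bases 2 to 8, and sequences are written 5′ to 3′.
miR-466i-3p: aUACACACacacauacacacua
miR-466q: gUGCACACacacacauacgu
miR-467f: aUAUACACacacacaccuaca
miR-467g: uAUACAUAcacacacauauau
miR-466k: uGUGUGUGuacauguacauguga
miR-466j: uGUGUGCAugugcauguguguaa
miR-669n: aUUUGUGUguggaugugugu

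The first 4 sequences alternate A and C over much of their length and the last 3 alternate G and U. Counting each pair of neighbouring bases as 1 step, the larger of the share of GU or UG steps and the share of AC or CA steps was 50.0% to 71.4% in these 7 sequences. Its median over the 1180 listed miRNA names with a sequence was 19.0% and its 90th percentile 32.0%, and 5 of the 1173 names outside the families reached 50.0%. The 7 seeds were all different from each other, and none was the seed of another listed miRNA with a sequence. The other rows of the families had no sequence here, so seeds shared with them could not be seen. The sequences belong to chr13:17747552-17747573 on the plus strand for miR-466i-3p, chr3:28419988-28420007 plus for miR-466q, chr11:69635419-69635439 minus for miR-467f, chr5:34732872-34732892 minus for miR-467g, chr3:85467396-85467418 plus for miR-466k, chr10:60960802-60960824 plus for miR-466j and chr3:115979905-115979924 plus for miR-669n. Their levels were low, from 1 read in all 8 libraries together for miR-467g to 45 reads for miR-466q, whose highest value was 1.0 CPM in bone cancer pain 3.

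By name, the GENCODE M21 annotation (GRCm38) and 1 further name from RefSeq gave 82 hairpins of these families, of which 72 lie in Sfmbt2 (chromosome 2, 10370510 to 10595253, plus strand). All 72 are on the strand of Sfmbt2 and in intron 11 of the 22 introns of its annotated principal transcript, which runs from 10461473 to 10523944. Within it they span 51617 bases, from 10466663 to 10518279. The same intron holds 47 predicted hairpins without a miRNA name, and no other row of the table came from it. The core of the cluster is a repeated unit of a miR-467, a miR-466 and a miR-669 hairpin in that order: 12 such units, 600 to 611 bases long, follow each other at a median distance of 2452 bases from start to start, and 10 of the 11 distances lie between 2400 and 2500 bases.

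The other 10 hairpins are scattered over chromosomes 3, 5, 7, 9, 10, 11 and 13, among them Mir466i (chromosome 13, 17747473 to 17747593), which lies in no other annotated gene of its strand, and Mir466q, in an intron of the kinase gene Tnik. Of the 62 distinct rows, 49 come by name from hairpins in Sfmbt2 alone, 8 from hairpins elsewhere and 5 from both. No row is named for 4 hairpins in Sfmbt2 and 1 elsewhere. A row named for several hairpins cannot be assigned to one of them.

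**Figure D1:**
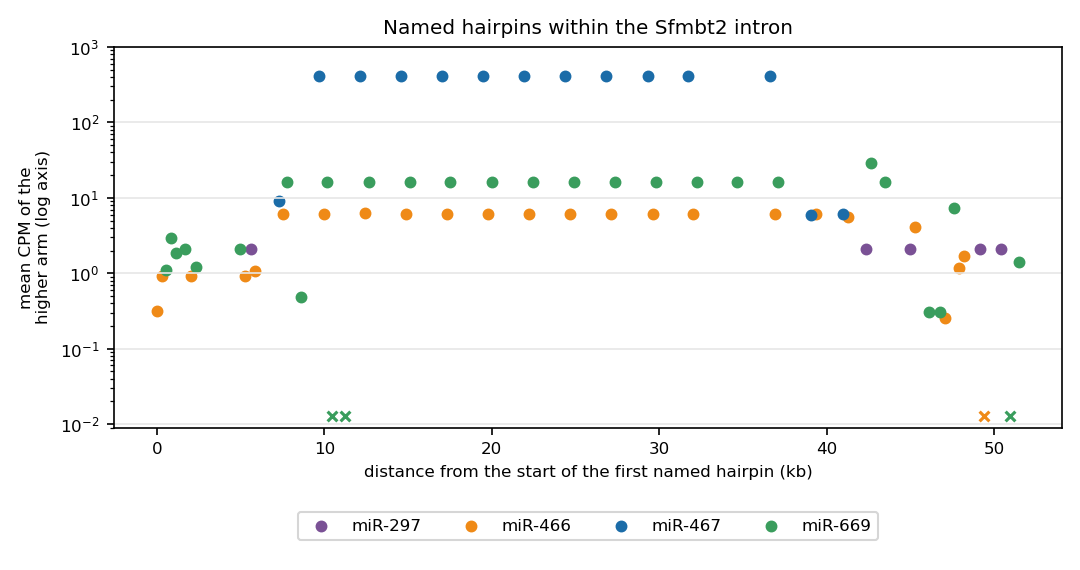
Mean CPM over 8 libraries (log axis) of the higher arm of each named hairpin against its distance in kb from the first named hairpin of the Sfmbt2 intron, coloured by family; crosses at the bottom edge are the 4 hairpins with no row, which have no value. Hairpins of 1 row carry the same value, so the level lines at 417, 16.1 and 6.12 CPM are single values drawn at each of their hairpins, and rows of single hairpins mostly stand at the ends.

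Most of the reads of the families stood in a single row. miR-467a-5p, named for 11 hairpins of the cluster, stood at 368, 480, 257 and 442 CPM in bone cancer pain 1 to 4 and at 493, 356, 579 and 364 CPM in sham 1 to 4. It ranked 104 among the 1396 rows and made up 56.0% to 78.6% of the summed CPM of the 62 distinct rows. That sum ran from 459 CPM in bone cancer pain 3 to 737 CPM in sham 3, or 0.0686% to 0.107% of the CPM of all listed miRNAs. By family, the sum was 282 to 608 CPM for miR-467, 58.1 to 97.8 CPM for miR-669, 50.2 to 128 CPM for miR-466 and 2.04 to 4.16 CPM for miR-297.

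The next most abundant rows were 1 named for a hairpin outside the cluster and 2 named for hairpins inside it. miR-466i-5p, named for the hairpin on chromosome 13, stood at 33.4, 17.3, 53.4 and 16.0 CPM in bone cancer pain and at 29.1, 23.3, 19.7 and 81.2 CPM in sham. Whether its reads came from that hairpin was not tested. miR-669c-5p, named for 1 hairpin in the last part of the cluster, stood at 24.2, 28.2, 29.4 and 31.0 CPM in bone cancer pain and at 27.9, 27.2, 23.5 and 42.5 CPM in sham. miR-669a-5p, named for 14 hairpins, stood at 12.2, 15.2, 14.4 and 20.2 CPM in bone cancer pain and at 14.5, 14.9, 17.99 and 19.1 CPM in sham. All other distinct rows had a mean under 10 CPM, and miR-467c-5p led them at 6.42 to 11.1 CPM.

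The order of these levels was firm at the top only. miR-467a-5p lay above every value of every other member. miR-466i-5p and miR-669c-5p exchanged places, each being the higher in 4 of the 8 libraries. miR-669c-5p lay above miR-669a-5p, and that above miR-467c-5p, in 8 of 8 libraries with ranges that did not overlap. Among the 19 pairs of neighbours in the order of the 20 most abundant rows, 3 had ranges apart; the other ranges overlapped.

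**Figure D2:**
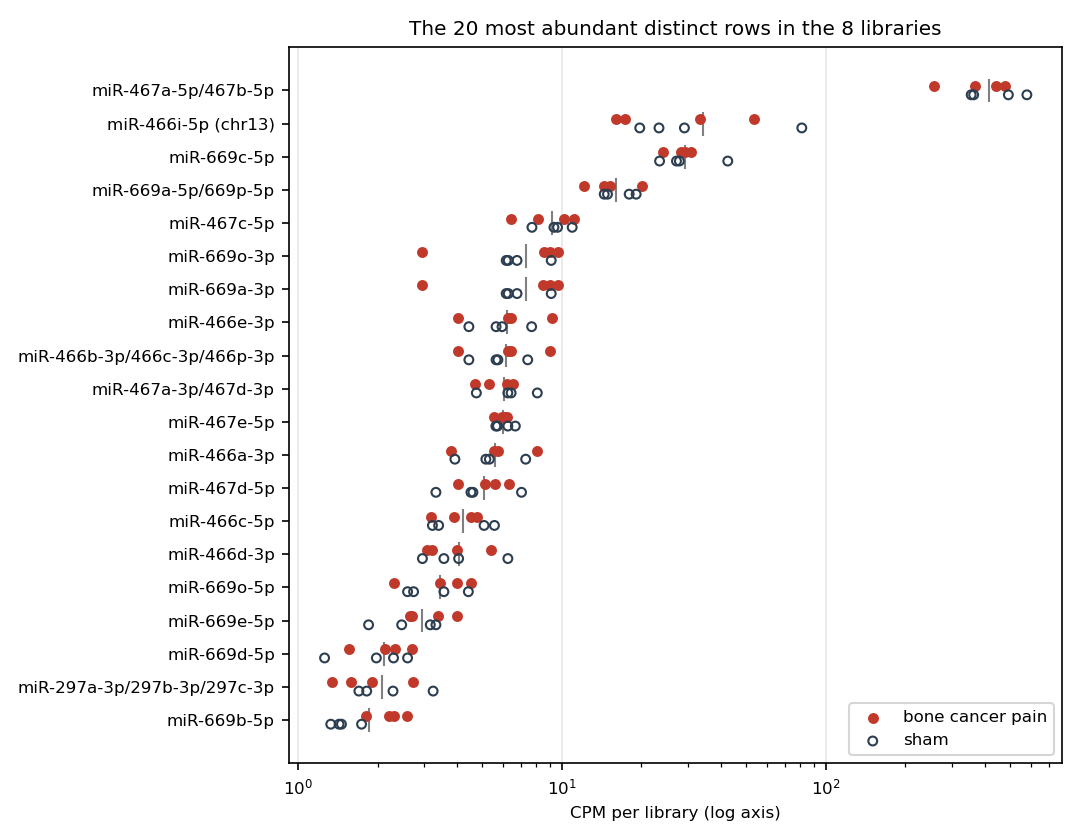
CPM per library (log axis) of the 20 most abundant distinct rows, filled points for bone cancer pain, open points for sham, with a grey tick at the mean of the 8 libraries. miR-467a-5p stands far to the right at 257 to 579 CPM, miR-466i-5p spreads from 16.0 to 81.2 CPM, and filled and open points mix in all rows but miR-669b-5p.

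Rows named for many hairpins and rows named for 1 hairpin overlapped in level, the first with the higher median. Over the 35 rows with 1 hairpin in Sfmbt2 and none elsewhere the mean ran from 0.01 to 29.2 CPM, with a median of 1.04 CPM, and over the 6 rows with 9 or more from 1.08 to 417 CPM, with a median of 6.71 CPM. miR-467a-5p, miR-466b-3p and miR-669a-5p come from the 3 hairpins of the same repeated unit, and are named for 11, 12 and 14 hairpins. miR-467a-5p was 17.8 to 34.0 times as high as miR-669a-5p and 40.1 to 103 times as high as miR-466b-3p in the 8 libraries. Divided by the number of hairpins in the cluster, the mean level was 38.0 CPM per hairpin for miR-467a-5p, 1.15 for miR-669a-5p and 29.2 for miR-669c-5p with its 1 hairpin.

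Several rows with different values were also close to equal in every library. miR-669o-3p and miR-669a-3p differed by at most 1 read in any library, miR-466e-3p and miR-466b-3p by at most 2, and miR-466a-3p followed these within 12.5%. Counting rows that differ by at most 1 read or 15% in every library as 1 leaves 57 rows, and the summed level then ran from 437 to 719 CPM. How such reads were counted is not given, so whether these rows hold the same reads was not tested.

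Detection over the 8 libraries was about that of the table as a whole. At least 3 reads in every library were present for 28 of the 62 distinct rows (45.2%), against 653 of all 1396 rows (46.8%). A further 23 had 3 reads in some libraries and 11 in none, and 15 had under 10 reads over all 8 libraries together. The value of 3 reads ran from 0.222 to 0.390 CPM, so that a 0 in a library allows a level of up to that value, counting error only. The median of the row means was 0.552 CPM for the families and 0.467 CPM for all rows. In the other large imprinted cluster of mouse miRNAs, from miR-379 to miR-410 on chromosome 12, 59 of 70 distinct rows (84.3%) had at least 3 reads in every library, their median was 19.2 CPM and their sum 23998 to 29921 CPM.

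The 5p arms held most of the reads, 87.0% to 93.6% of the summed CPM in the 8 libraries, and the 3p arms 6.13% to 12.2%. This share rested on miR-467a-5p: without it, 3p arms made up 28.4% on average in place of 8.54%. Both arms have a row for 31 hairpin names, and for 27 of these at least 1 arm reached a mean of 1 CPM. The 5p arm was the higher in 8 of 8 libraries for 14 of the 27 names, the 3p arm for 9, and neither for 4. A row with several names enters this count under each of them.

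By name, the higher arm differed between families. Among the miR-467 names the 5p arm was the higher in every library for 4 of 5, and miR-467a-5p exceeded miR-467a-3p by 41.4 to 102 times. The exception was miR-467d, whose arms stood at 3.33 to 7.03 CPM (5p) and 4.69 to 8.07 CPM (3p). Its 5p row is named for 1 hairpin, but its 3p row is that of miR-467a-3p, named for 11. Whether the miR-467d hairpin itself prefers an arm was therefore not tested. The 3p arms of miR-467b, miR-467c and miR-467e had 6, 10 and 9 reads in all libraries together, against 36037, 791 and 508 on their 5p arms.

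Among the miR-669 names the 5p arm was the higher in every library for 8 of 10. miR-669c-5p had 2440 reads over all libraries and miR-669c-3p 8, miR-669b-5p had 157 and miR-669b-3p 5, miR-669e-5p had 249 and miR-669e-3p 6, and miR-669d-5p had 174 and miR-669d-3p 2. miR-669p-3p had 17 reads. The arms of miR-669a were closer, with miR-669a-5p at 1.499 to 4.12 times miR-669a-3p. The exceptions were miR-669o, with the 3p arm higher in 7 of 8 libraries, and miR-669f, whose arms stood at 0.52 to 1.68 CPM (5p) and 0.52 to 1.35 CPM (3p). miR-669o-3p was within 1 read of miR-669a-3p, named for 12 hairpins, in every library. Whether its reads came from the miR-669o hairpin was not tested.

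The miR-466 and miR-297 names mostly had the 3p arm higher, in every library for 6 of 9 and for 3 of 3. These names are not separate cases. miR-466b, miR-466c and miR-466p share 1 3p row, named for 12 hairpins, set against 5p rows named for 9, 3 and 1. miR-466a-3p and miR-466e-3p were close to equal to that 3p row, and the miR-297 names share 1 3p row. The part of this unlike pooling in the higher 3p arm was not tested. The level of miR-466e-3p was 4.05 to 9.21 CPM against 0.20 to 0.80 CPM of miR-466e-5p, and that of miR-466a-3p 3.81 to 8.06 against 0.00 to 0.32 CPM of miR-466a-5p. miR-466b-3p stood at 4.05 to 9.03 CPM, against 0.67 to 1.51 CPM of miR-466b-5p, 3.19 to 5.55 CPM of miR-466c-5p and 0.25 to 0.80 CPM of miR-466p-5p. miR-466d-3p, at 2.96 to 6.24 CPM, stood against 0.10 to 0.61 CPM of miR-466d-5p.

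miR-297a-3p, at 1.35 to 3.25 CPM, is the 3p arm of all 3 miR-297 names, whose 5p arms had 27 reads (miR-297a-5p), 47 reads (miR-297b-5p) and 1 read (miR-297c-5p). The exceptions among the miR-466 names were miR-466i, with 16.0 to 81.2 CPM on the 5p arm and 0.15 to 0.87 CPM on the 3p arm, miR-466o, whose 3p arm had 1 read, and miR-466h, with 0.91 to 1.85 CPM (5p) and 1.11 to 2.60 CPM (3p). By row, the higher arm was the 5p arm for the miR-467 and miR-669a names of the repeated unit and the 3p arm for its miR-466 names. Several of these rows pool hairpins differently on the 2 arms, so the preferred arm of a single hairpin of the unit was not tested.

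**Figure D3:**
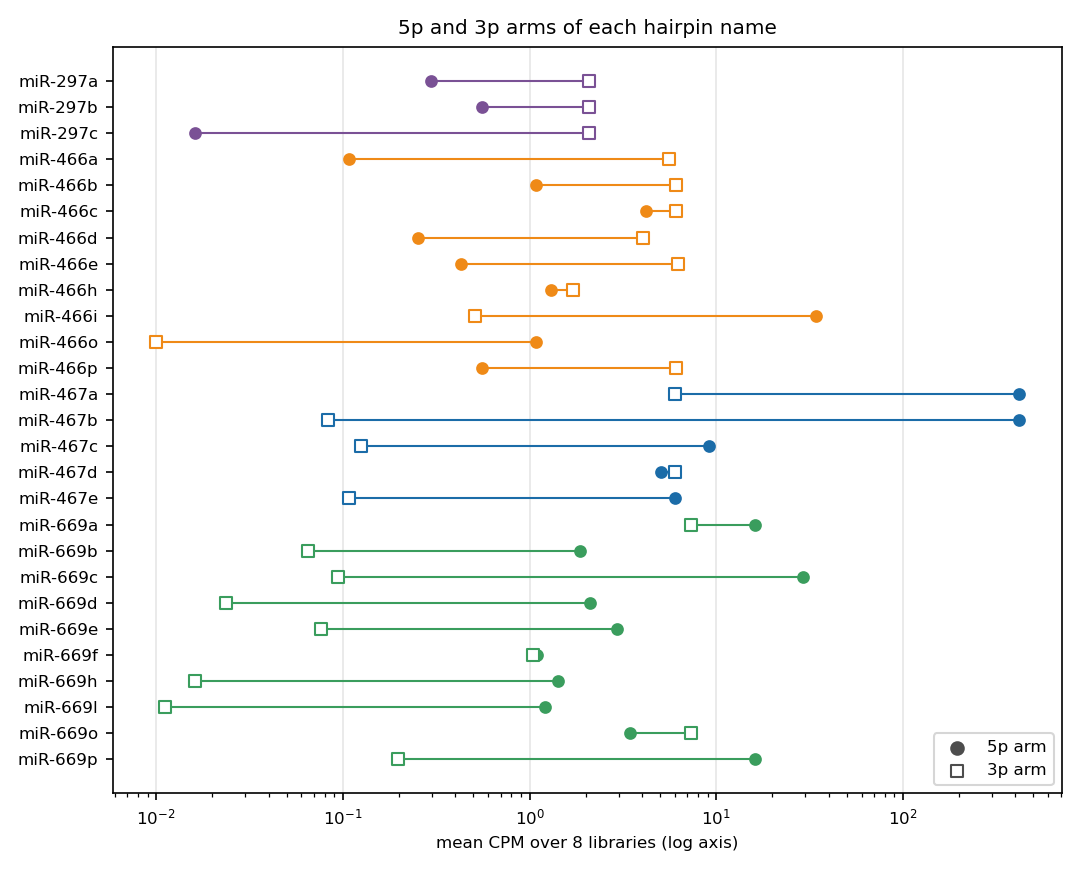
Mean CPM over 8 libraries (log axis) of the 5p arm (circles) and the 3p arm (squares) of the 27 hairpin names with an arm of at least 1 CPM, joined by a line and coloured by family; a shared row is drawn under each of its names. Squares lie to the right for the miR-297 names and for most miR-466 names, circles for 4 of 5 miR-467 and 8 of 10 miR-669 names.

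The members also differed in how much they varied between libraries. The 13 members with a mean of at least 5 CPM, near-equal rows counted separately, were set against all 435 rows reaching 5 CPM. The coefficient of variation over the 8 libraries (SD over mean) had a median of 24.1% in the members and 17.9% in the 435 rows. Those rows include far more abundant ones, and rows of like abundance were not compared. Among the members the coefficient ran from 6.32% to 65.8%. The lowest was miR-467e-5p, at 5.52 to 6.66 CPM, below the 12.6% that counting error alone gives at its mean of 63.5 reads a library. The highest was miR-466i-5p, where counting error gives 5.48%, and the 12 rows of the Sfmbt2 cluster reached at most 30.6%. Rows named for hairpins elsewhere made up between 2.89% (bone cancer pain 4) and 13.3% (sham 4) of the summed CPM, and miR-466i-5p was nearly all of that.

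The libraries that stood out were not always those that stood out among all miRNAs. Sham 4 held the highest value for 8 of the 28 members with a mean of at least 1 CPM and for 41.5% of all 605 rows of that level. Bone cancer pain 4 held the highest for 8 members and for 15.5% of all rows. Bone cancer pain 1 held the lowest for 10 members and for 13.9% of all rows. These counts take rows close to equal as separate members. The near-equal miR-466e-3p, miR-466b-3p and miR-466a-3p were all highest in bone cancer pain 4 and lowest in bone cancer pain 1. The near-equal miR-669o-3p and miR-669a-3p were also both lowest in bone cancer pain 1. In bone cancer pain 1, miR-669h-5p was at 0.25 CPM (2 reads) against 1.11 to 2.41 CPM in the other libraries, and miR-669a-3p at 2.95 CPM against 6.15 to 9.63 CPM. This library had 5672862 reads on listed miRNAs, and the part of depth was not tested.

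The study's question for the whole table, which miRNAs differ in the spinal cord of mice with bone cancer pain, was put to the members in the fit of all 605 rows with a mean of at least 1 CPM (limma on log2(CPM + 1), Benjamini-Hochberg adjustment over the 605 rows). No member passed as higher or lower. Of the 28 distinct members tested, standing for 36 names, 0 passed an adjusted p of 0.05, as did 0% of all 605 rows, and the smallest adjusted p of a member was 0.887. At an unadjusted p under 0.05 there was 1 member, beside 4.63% of all rows (2.81% higher and 1.82% lower). On the recovered reads, edgeR and DESeq2 each passed 0 members once adjusted, as they did 0% of all rows. At an unadjusted p below 0.05 edgeR had 1 member, beside 7.11% of all rows, and DESeq2 had 0, beside 5.12%. The other 34 distinct members had means of 0.01 to 0.925 CPM and were not tested. The tested member nearest the limit was miR-669f-3p at 1.04 CPM, and the untested one nearest it was miR-466f-3p at 0.925 CPM.

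Differences of the tested members, given as log2 fold changes, bone cancer pain minus sham, ran from -0.28 to 0.37 on the log2(CPM + 1) scale, which understates changes near 1 CPM. They were above 0 for 10 members (35.7%) and below 0 for 18, against 48.3% above 0 over all rows. Their median was -0.040, beside -0.0070 over all rows. For 27 of the 28 members both ends of the 95% interval were inside a 2-fold change of CPM + 1 (all rows 91.7%). For 15 they were inside a 1.5-fold change of CPM + 1 (all rows 61%). For members near 1 CPM these limits do not bound the fold change of CPM itself.

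**Figure D4:**
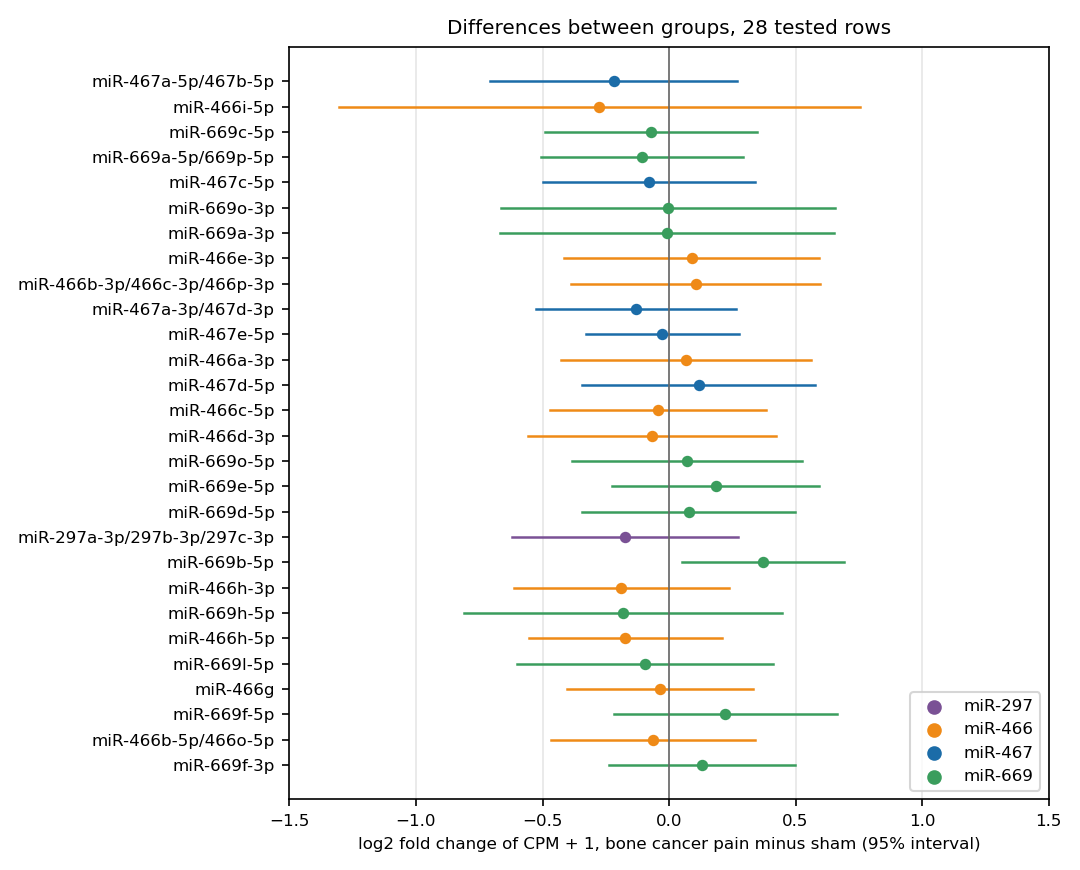
Log2 fold change of CPM + 1 (points), bone cancer pain minus sham, with its 95% interval from limma (bars) for the 28 distinct rows tested, in order of mean CPM and coloured by family. The interval of miR-669b-5p, 0.05 to 0.69, is the one that does not cross 0, and that of miR-466i-5p, -1.31 to 0.75, is the widest.

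The member with the smallest unadjusted p was miR-669b-5p, named for 1 hairpin of the cluster. It stood at 2.58, 2.22, 1.81 and 2.30 CPM in bone cancer pain and at 1.46, 1.33, 1.74 and 1.43 CPM in sham. All 4 bone cancer pain values lay above all 4 sham values, as for 1.98% of all rows tested, 1.65% lying the other way and 3.64% in either direction, and no other tested member had groups apart. The means were 2.23 ± 0.318 and 1.49 ± 0.176 CPM (SD, n = 4), with a difference of 0.37 on the log2 scale (95% interval 0.05 to 0.69) and a limma unadjusted p of 0.0271 and adjusted p of 0.887. These values are 11 to 27 reads a library. Its unadjusted limma p was 0.0521 to 0.0761 without bone cancer pain 1, 2 or 4 or without sham 1 or 2, and 0.0165 without bone cancer pain 3. Without both sham 1 and sham 2 it was 0.159. With all 8 libraries the unadjusted p was 0.0271 by edgeR and 0.101 by DESeq2.

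The next 4 members above 0 in order of unadjusted p were miR-669f-5p, miR-669e-5p, miR-669f-3p and miR-467d-5p, and the groups of each overlapped. miR-669f-5p stood at 1.10, 0.74, 1.5 and 1.68 CPM in bone cancer pain and at 1.46, 0.74, 1.03 and 0.52 CPM in sham, a difference of 0.22 on the log2 scale (95% interval -0.22 to 0.66). miR-669e-5p stood at 2.70, 3.38, 4.01 and 2.66 CPM against 3.33, 1.85, 3.17 and 2.47 CPM, a difference of 0.18 on the log2 scale (-0.23 to 0.59). For miR-669f-3p and miR-467d-5p the log2 fold changes were 0.13 (-0.24 to 0.50) and 0.12 (-0.34 to 0.58). Each of these intervals covers 0.

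On the lower side stood the most abundant member. miR-467a-5p averaged 387 ± 98.2 CPM in bone cancer pain and 448 ± 108 CPM in sham (SD, n = 4), a difference of -0.22 on the log2 scale (95% interval -0.71 to 0.27, limma adjusted p 0.943), smaller than the spread between libraries of either group. Its other arm, miR-467a-3p, had a difference of -0.13 on the log2 scale (-0.53 to 0.27), and miR-297a-3p of -0.17 (-0.62 to 0.27). Both arms of miR-466h had fold changes below 0, with -0.17 (-0.55 to 0.21) for miR-466h-5p and -0.19 (-0.61 to 0.24) for miR-466h-3p.

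For miR-466i-5p the bone cancer pain libraries averaged 30.02 ± 17.5 CPM and the sham libraries 38.3 ± 28.8 CPM, a difference of -0.28 on the log2 scale (95% interval -1.31 to 0.75). Without sham 4 it was 0.16, so its direction rested on that library. miR-669o-3p and miR-669a-3p, whose counts were within 1 read of each other in every library, had log2 differences of -0.0041 and -0.0072, and of 0.33 without bone cancer pain 1. miR-669c-5p, miR-669a-5p and miR-467c-5p had log2 differences of -0.07, -0.11 and -0.08, and miR-466e-3p and miR-466b-3p of 0.09 and 0.10, all with intervals across 0. Of these, the sign changed for miR-669c-5p without sham 4 (0.10), for miR-467c-5p without bone cancer pain 3 (0.05), and for miR-466e-3p and miR-466b-3p without bone cancer pain 4 (-0.07 and -0.05).

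The summed level of the families averaged 560 ± 87.8 CPM in bone cancer pain and 628 ± 98.1 CPM in sham (SD, n = 4), a log2 ratio of -0.17, and the groups overlapped. The sum without miR-467a-5p was 146, 159, 202 and 185 CPM in bone cancer pain and 159, 143.7, 158 and 261 CPM in sham, a log2 ratio of -0.06. For the 48 rows of hairpins in Sfmbt2 alone without that row it was 137 ± 23.03 against 137 ± 24.3 CPM, a log2 ratio of 0.007. The share of 3p arms overlapped as well, at 6.38%, 8.02%, 12.2% and 10.1% in bone cancer pain and 7.39%, 7.64%, 6.13% and 10.4% in sham.

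Among the rows too low to test, miR-669p-3p was the one member of 34 whose groups did not overlap, beside 1.64% of all 791 such rows. It stood at 0.37, 0.41, 0.20 and 0.18 CPM in bone cancer pain and 0.10, 0.15, 0.16 and 0.00 CPM in sham, values of at most 5 reads. No row was without reads in one whole group and at 3 reads or more in every library of the other.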

How the data were processed

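The values are CPM as the authors deposited them, in a single table with 1396 rows and 2 decimals. Per the submitters' processing notes, fastp, STAR, Bowtie and Salmon and the build mm10 were used; the sources used here give neither their versions and roles nor how reads that match several miRNAs were counted. Per the labels' protocols, RNA was extracted with TRIzol; the same protocols speak of rRNA removal and fragmentation, and the samples are described as small RNA. The deposited CPM of the listed miRNAs sum to 669252 to 701908 per library, so the denominator counts other reads too.

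The value of 1 read was recovered from the CPM steps: 99.8% to 100% of the values of a library were whole reads within 0.0051 CPM. A floor of 3 reads and the counting errors cover counting error only. Chi-square tests of reads between libraries of 1 group gave 31.8 to 503 per degree of freedom, so no library repeats another of its group. Libraries of different groups were not compared in this way.

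Rows whose mean over 8 libraries reached 1 CPM were tested (605 of 1396) as log2(CPM + 1) with limma 3.58.1 in R 4.3.3 (mean-variance trend, two-sided, Benjamini-Hochberg over all rows tested, threshold 0.05). edgeR 4.0.16 and DESeq2 1.42.0 on the recovered reads, other pseudocounts, filters and scalings, a replicate block and fits that each leave out 1 library were alternatives; a fit without sham 1 and sham 2 and the merging of near-identical rows were chosen after seeing the data. The procedure was tested on simulated data. The members and lists were chosen with earlier results of these data known. Named with values are the 20 most abundant distinct rows, the 5 higher and the 5 lower tested rows with the smallest unadjusted p, their partner arms, and any row at 0 in 1 whole group but at 3 reads in every library of the other; miR-466f-3p, miR-669h-5p and the rows with a printed sequence were added after their values were seen. Hairpins were placed by name with GENCODE M21 (GRCm38, the same assembly as mm10).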

Additional observations from a re-analysis of the deposited data

Results flagged for a closer look

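In each group of 4 libraries, the highest or lowest value of the 28 tested members was set against the other 3 (gap over range above Dixon's critical value). Of 56 groups examined, 2 had such a value, where chance gives about 1 in 20. miR-466i-5p was at 81.2 CPM in sham 4 against 19.7 to 29.1 CPM in the other sham libraries. miR-669o-3p was at 2.95 CPM in bone cancer pain 1 against 8.56 to 9.63 CPM in the other bone cancer pain libraries; miR-669a-3p was within 1 read of it in every library.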

How the results depend on the processing

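Under every alternative run, 0 members and 0 rows of the table passed the adjusted threshold. With the replicate block the count was also 0, with 21 rows and 0 members at an unadjusted limma p under 0.05. Same-numbered libraries did not deviate together (correlations -0.31 to -0.011). This cannot tell whether they were prepared together. The smallest adjusted p of a named member was 0.572, for miR-669b-5p with edgeR. The median log2 fold change of the members lay between -0.11 and 0.10 when 1 library was left out, and was -0.13 without sham 1 and sham 2 and 0.033 with no filter. The log2 ratio of the summed levels was -0.26 to -0.081 with 1 library left out and -0.18 with near-identical rows entered once. Rows with 3 reads in every library numbered 28 to 30 with 1 library left out, 40 at more than 0 reads and 21 at 10 reads. The share of 3p arms was 8.01% to 8.88% with 1 library left out and 28.4% without miR-467a-5p.

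Of the 25 named tested members, 15 changed sign when some library was left out and 24 moved by over 1.5 times; the exception was miR-669b-5p, at 0.32 to 0.44. The ranges of those that changed sign were -0.60 to 0.16 for miR-466i-5p, -0.18 to 0.10 for miR-669c-5p, -0.18 to 0.053 for miR-467c-5p, -0.075 to 0.26 for miR-466e-3p, -0.053 to 0.28 for miR-466b-3p, -0.057 to 0.013 for miR-467e-5p, -0.085 to 0.22 for miR-466a-3p, -0.017 to 0.28 for miR-467d-5p, -0.15 to 0.065 for miR-466c-5p, -0.20 to 0.10 for miR-466d-3p, -0.028 to 0.22 for miR-669o-5p, -0.058 to 0.18 for miR-669d-5p, -0.17 to 0.0057 for miR-466b-5p, -0.14 to 0.33 for miR-669o-3p and -0.15 to 0.33 for miR-669a-3p. miR-669o-3p and miR-669a-3p also turned with TMM (0.0079 and 0.0049), median-of-ratios scaling (0.0031 and 3.27e-05), edgeR (0.12 and 0.12) and DESeq2 (0.12 and 0.12). Without sham 1 and sham 2, miR-466e-3p (-0.063), miR-466b-3p (-0.048), miR-466a-3p (-0.11), miR-467d-5p (-0.11), miR-669o-5p (-0.15), miR-669d-5p (-0.13) and miR-669f-3p (-0.0020) turned. The cause was not tested. Members near 1 CPM rest on as few as 2 reads in a library, which limits what can be seen of them.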
